A study of Homo sapiens with 9 samples.

Results

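The 77 genes described here encode the proteins of the human cytosolic ribosome. They were taken by symbol, as RPL or RPS followed by digits and at most the letter A or X. RPLP0, RPLP1, RPLP2 and RPSA were added. The rule uses no measured value, but this set of genes was chosen with earlier results of these data known. The deposited table held 18430 genes, of which 13989 passed a filter on low counts, and all 77 ribosomal protein genes were among those tested. Of the 77, 43 encode large-subunit proteins, 31 encode small-subunit proteins including RPSA, and 3 encode the acidic stalk. They lay on 21 chromosomes, with 12 on chromosome 19 as the highest number on any chromosome.

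The cells were A375, a melanoma line whose labels give the genotype BRAFV600E, an activating mutation of the kinase BRAF, and RNA-seq was run on 9 samples of them. In 3 of them the cells were given vemurafenib, which inhibits the mutant BRAF kinase, at 10 µM over 3 days. In another 3 they were given cisplatin, a DNA-crosslinking platinum drug, at 2 µM over 1 day. Both sets went back to drug-free medium and were harvested on day 7, so their RNA is that of cells some days after the drug. The last 3 were control cells kept in normal culture, with the same genotype and no drug. All groups come from a single cell line. Dose, exposure and time without drug differed between the drugs, and effects of the agents and of these settings cannot be told apart.

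Each cytosolic ribosome is built from a large and a small subunit, and most of their proteins are used in equal numbers. Their mRNAs are among the most abundant in growing cells, and many of them begin with a cytosine followed by a run of pyrimidines, the terminal oligopyrimidine (TOP) motif, through which mTORC1 signalling controls their translation and stability. Several ribosomal proteins that are not bound in ribosomes bind and inhibit MDM2, the ubiquitin ligase that degrades p53.

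The starts of 7 of these genes are shown because the results below turn on them. At the annotated start shown, 4 have a TOP run and 3 do not, and pyrimidines elsewhere near the start were not counted. Each line holds 15 bases before and 15 bases from the annotated start, 5′ to 3′, from RefSeq on GRCh38.p14. Capitals mark the run that begins with the C at the annotated start and goes on with pyrimidines.
RPS6 (chr9:19380222-19380251, minus strand): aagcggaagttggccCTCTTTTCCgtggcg
RPL10 (chrX:154398362-154398391, plus strand): caggcggaggagcgcCTCTTTCCCTTCggt
RPSA (chr3:39406705-39406734, plus strand): tttcctgccgcctgtCTTTTCCgtgctacc
RPL35 (chr9:124861943-124861972, minus strand): agccccgcctacttcCTCTTTCCCTCggag
RPS7 (chr2:3575245-3575274, plus strand): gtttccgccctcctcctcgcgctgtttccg
RPS26 (chr12:56041903-56041932, plus strand): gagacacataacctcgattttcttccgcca
RPS4X (chrX:72277234-72277263, minus strand): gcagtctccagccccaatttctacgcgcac
The runs shown were 9 bases long in RPS6, 12 in RPL10, 7 in RPSA and 11 in RPL35, and 0 in RPS7, RPS26 and RPS4X, whose annotated start was not a C followed by at least 4 pyrimidines. RPL10 has 3 starts in the table and the others shown have 1. The RPL10 start shown was picked for its run, and the other RPL10 starts have no such run.

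The RefSeq promoter table held 62 of the 77 genes, and those not in it included RPL23, RPL23A, RPL30, RPL37, RPL5, RPL7, RPL8, RPS15A, RPS2 and RPS20. A C followed by at least 4 pyrimidines stood at an annotated start of 46 of the 62 genes, or 74.2%, against 5.14% of 27305 genes in the table. Counted by start, it stood at 46 of the 77 starts listed for these genes, or 59.7%, against 4.07% of 35116 starts. In the 300 bases around the start, read on both strands, the letters CCGGAAG were present in 35.5% of the ribosomal protein genes against 12.2% of all genes and ATGGCG in 40.3% against 12.7%. GGGCGG was present in 58.1% against 48.3%, and TATAAA in 8.06% against 13.99%. The motifs were searched separately and matches may overlap. A match describes the letters in the window and not a bound factor.

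Library totals ranged from 14481000 to 16038500 estimated counts. Among the melanoma markers the cells expressed SOX10, with mean TPM (the authors' value per transcript length, scaled to a fixed total per library) of 804 in vemurafenib, 610 in cisplatin and 730 in control cells, while MLANA was at 0.363, 0.453 and 0.267. S100A1 was at 614, 2900.3 and 718, S100B at 584, 300.05 and 30.6 and DCT at 125, 0.32 and 0.043 TPM in the same groups. The 8 melanoma markers together summed to between 2061 and 2223 TPM in vemurafenib, 3628 and 4010 in cisplatin and 1393 and 1587 in control libraries. Of 6 fibroblast markers the sums lay between 17.2 and 28.3, 12.1 and 26.3, and 8.77 and 11.9 TPM in the same order, of 5 endothelial markers between 2.79 and 10.8, 19.4 and 21.8, and 6.26 and 8.25, and of 4 blood markers below 1 TPM in every library. The 6 epithelial markers, mostly KRT18 and KRT8, summed to between 135 and 206, 319 and 355, and 388 and 442 TPM. The part of these markers in the results below was not tested. CDH5, the endothelial cadherin, was listed at 0 on average in vemurafenib and control cells and at 0.01 TPM in cisplatin cells, and CDH1, the epithelial cadherin, at 0, 0.05 and 0 TPM.

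Ribosomal protein mRNAs were among the most abundant in these cells. In control cells 65 of the 77 were among the 100 highest genes of the table by mean TPM, all 77 were among the 500 highest, and the lowest ranked 380. Their median was 2893 TPM, against 18.1 TPM over all tested genes. The genes spanned a 28.7-fold range in control TPM although most of their proteins are used in equal numbers. RPS27, a small-subunit protein, was the highest at 10321 ± 778 TPM in vemurafenib, 10072 ± 1788 in cisplatin and 9626 ± 1064 in control cells (SD, n = 3 each). RPS6, the small-subunit protein phosphorylated by S6 kinases downstream of mTORC1, was next at 6060 ± 134, 6738 ± 555 and 7617 ± 614 TPM in the same groups. The next place in control cells was held by RPS2 at 6647 ± 290 TPM. The lowest were RPL37 at 585 ± 30.3, RPS23 at 471 ± 34.1, RPL13 at 464 ± 20.7, RPL22 at 460 ± 23.5 and RPL27A at 335 ± 20.9 TPM. Of the 76 neighbouring pairs in this order, 66 overlapped when the values of the 3 control libraries were compared. TPM divides by the length of the transcripts the authors counted on, so an order between genes rests on those transcript models.

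**Figure D1:**
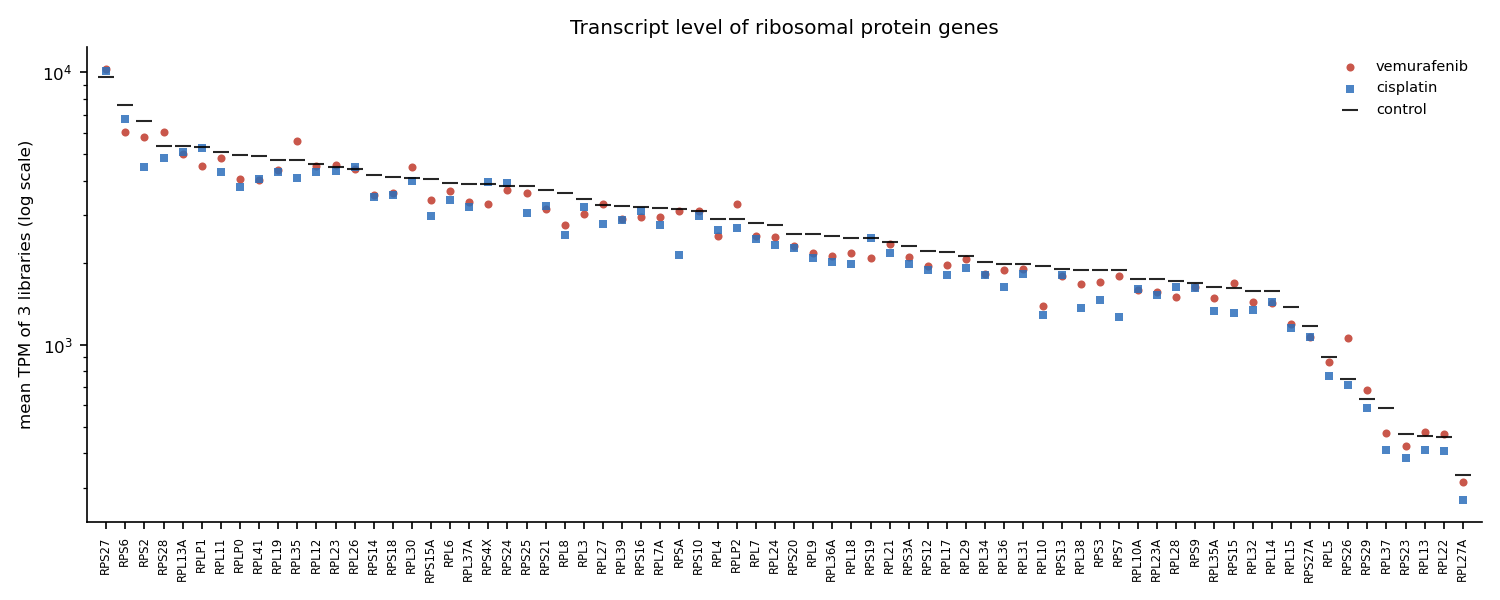
Mean TPM of 3 libraries (y axis, log scale) of 72 of the 77 ribosomal protein genes, ordered along the x axis by control level, with vemurafenib cells as red circles, cisplatin cells as blue squares and control cells as black bars. RPS27 is at the left with 9626 TPM in control cells and RPL27A at the right with 335 TPM, and most vemurafenib and cisplatin symbols lie at or below the control bar.

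The 77 genes moved together from library to library, including between libraries of the same group. Their summed level was 90425, 58599 and 59304 CPM (counts scaled to a common library size by TMM) in the vemurafenib libraries, 72185, 64917 and 57401 in the cisplatin libraries and 84703, 83078 and 72695 in the control libraries. Vemurafenib replicate 1 stood above every control, while vemurafenib replicates 2 and 3 and all cisplatin libraries stood below every control. As a share of all TPM the genes held 25.2%, 20.6% and 20.6% in vemurafenib, 22.6%, 20.9% and 19.2% in cisplatin and 24.8%, 24.5% and 22.3% in control libraries. Relative to the mean of controls, the median ribosomal protein gene was at 0.17, -0.42 and -0.42 on the log2 scale in the vemurafenib libraries, at -0.14, -0.29 and -0.46 in the cisplatin libraries and at 0.08, 0.04 and -0.13 in the control libraries. CPM and TPM are relative to the rest of each library, so a lower value is not a measured loss of mRNA per cell. Because whole cultures were sequenced, fewer cells with the mRNA, less of it per cell and more of other mRNAs cannot be told apart.

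**Figure D2:**
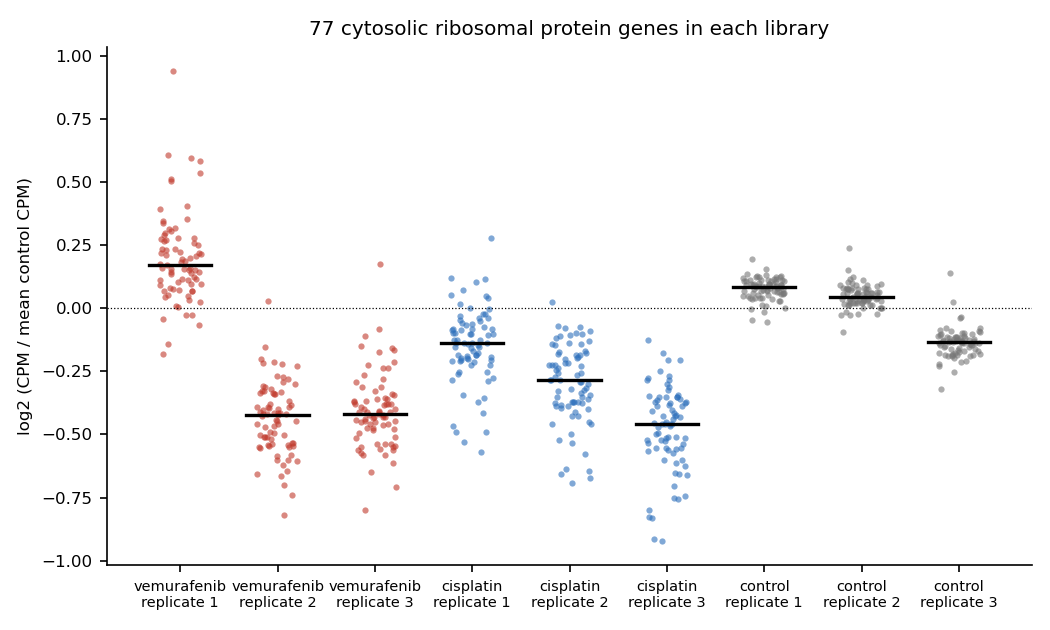
Level of each of the 77 ribosomal protein genes in each of the 9 libraries (x axis, vemurafenib, then cisplatin, then control) as log2 of CPM over the mean CPM of the 3 control libraries (y axis). Points are genes and black lines are medians, which are 0.17 in vemurafenib replicate 1 and -0.42 in both other vemurafenib libraries.

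Within each group most of the genes shared their highest or lowest library. Vemurafenib replicate 1 was the highest of its group in 77 of 77 ribosomal protein genes, against 43.1% of all tested genes, while the lowest was replicate 2 in 50 and replicate 3 in 27. Cisplatin replicate 1 was the highest of its group in 75, against 36.1% of all genes, and cisplatin replicate 3 the lowest in 77, against 37.0%. The highest control was replicate 1 in 54 genes and replicate 2 in 21, against 32.8% and 33.5% of all genes, and control replicate 3 was the lowest in 75, against 34.3%.

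Vemurafenib replicate 1 also differed from its group by transcript length. Across 13979 tested genes with an effective length (counts over FPKM, scaled to the library), the log2 ratio of this library to the mean of vemurafenib replicates 2 and 3 fell with length, with a Spearman rho of -0.61 given as a description across genes of the same 3 libraries. Genes under 500 bases had a median ratio of 0.54, those from 500 to 1000 bases 0.51, and those of 4000 bases or more -0.38. Here and below these classes include the ribosomal protein genes, which were 30 of 164 genes under 500 bases and 31 of 798 from 500 to 1000. Ribosomal protein transcripts are short. Their median effective length was 577 bases against 2982 bases for all tested genes, and 61 of the 77 were under 1000 bases, against 6.88% of all tested genes. Their own ratio had a median of 0.62 and ranged from 0.35 to 0.90. Among the ribosomal protein genes themselves the ratio had a rho of -0.15 with length. The 2 ribosomal protein genes of 4000 bases or more had a median ratio of 0.76, where all genes of that length had -0.38. The comparisons with vemurafenib are therefore given with and without replicate 1, and with an alternative fit that removes each library's trend with length.

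**Figure D3:**
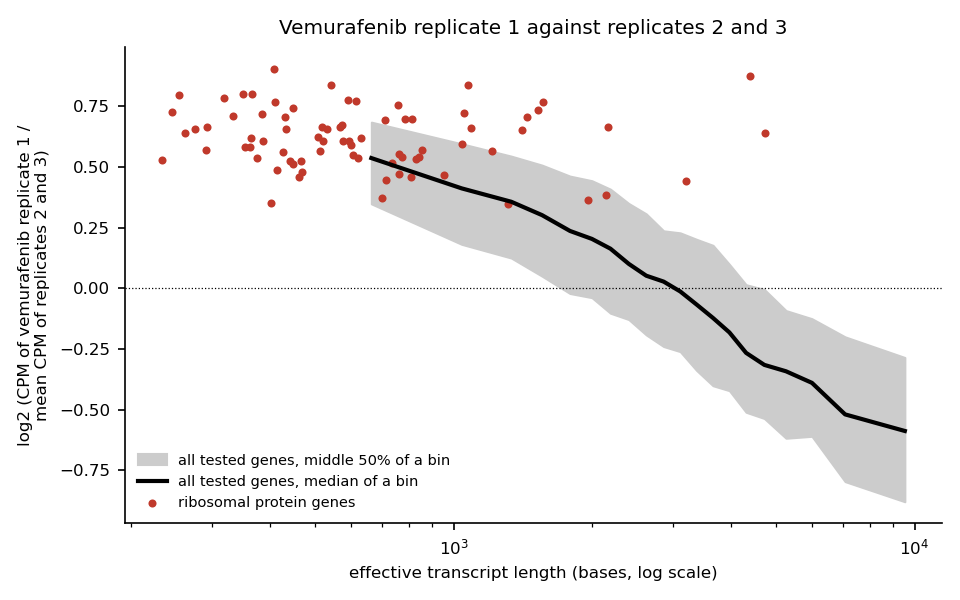
Effective transcript length in bases (x axis, log scale) against log2 of CPM in vemurafenib replicate 1 over the mean CPM of replicates 2 and 3 (y axis), with the median of all tested genes in length bins as a black line, the middle 50% of genes in each bin in grey and the 77 ribosomal protein genes as red points. All red points lie above 0, between 0.35 and 0.90, and most are at the short end.

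After vemurafenib most ribosomal protein genes lay below controls, and how many passed the test depended on replicate 1. With all libraries 2 of 77 fell and 0 rose (edgeR quasi-likelihood, Benjamini-Hochberg adjusted p under 0.05), against 22.9% of all tested genes lower and 22% higher. At an unadjusted p under 0.05 there were 3 lower and 1 higher, against 25.9% of all genes in each direction, and DESeq2 called 3 lower and 0 higher, against 23.7% and 22% of all genes. In all, 70 of the 77 had a log2 fold change below 0, with a median of -0.21 and a range from -0.55 to 0.44, beside a median of 0.01 over all genes. Without vemurafenib replicate 1, 67 fell and 0 rose, against 27.9% of all genes lower and 26.2% higher, the median was -0.42, and the largest fall was -0.81. With length trends removed and all libraries kept, 60 fell and 0 rose, against 26.2% of all genes lower and 24.5% higher, with a median of -0.35. With length trends removed and replicate 1 left out 65 fell, against 28.9% lower and 25.8% higher, and in a fit of the vemurafenib and control libraries alone 1 fell, against 20.2% lower and 18.4% higher. With replicate number as a block, 12 fell and 0 rose, against 23.9% lower and 22.8% higher. Without replicate 1 all genes under 500 bases, ribosomal protein genes included, had a median of -0.11 and those from 500 to 1000 bases -0.06. Both remaining vemurafenib libraries were below all controls in 73 of 77 genes, against 35.4% of all genes, the exceptions being RPL30, RPS26, RPS27 and RPS28. With all 3 vemurafenib libraries the groups did not overlap in 1 gene, RPL10, which was lower, against 27% of all genes lower and 25.8% higher. The summed level was 69443 ± 18175 CPM in vemurafenib and 80159 ± 6515 in control cells (SD, n = 3 each), a log2 ratio of -0.23 with an exact two-sided permutation p of 0.4, and of -0.14 with total counts and -0.11 in summed TPM. Without replicate 1 the ratio was -0.44 with an exact p of 0.1, the smallest that 2 against 3 libraries allow.

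RPL10, a large-subunit protein added late to the ribosome in the cytoplasm, was at 2019, 1265 and 1282 CPM in the vemurafenib libraries, against 2333, 2312 and 2039 CPM in the control libraries. Every vemurafenib library lay below every control, replicate 1 by a small margin. The log2 fold change was -0.55 ± 0.18 (SE) with an adjusted p of 0.0296 by edgeR's quasi-likelihood test, and -0.81 ± 0.12 without vemurafenib replicate 1. RPS6 was at 2508, 1949 and 1925 CPM in vemurafenib, against 3061, 2964 and 2503 CPM in control libraries. Vemurafenib replicate 1 overlapped control replicate 3, and the other vemurafenib libraries were below all controls. Its log2 fold change was -0.42 ± 0.14 with an adjusted p of 0.0325, and -0.55 ± 0.12 without replicate 1. Neither fall passed without vemurafenib replicate 2 or 3 or without control replicate 1 or 2, and RPS6 did not pass without cisplatin replicate 2, which shares the fit. The adjusted p ranged from 0.000161 to 0.0975 for RPL10 and from 0.000427 to 0.113 for RPS6 over the alternatives.

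RPS26, a small-subunit protein at the mRNA exit channel, lay at the other end of the range. It was at 822, 436 and 483 CPM in vemurafenib, against 413, 401 and 471 CPM in control libraries. The groups overlapped, and the value of replicate 1 was far above the others. Its log2 fold change of 0.44 ± 0.20 did not pass (adjusted p 0.0957), was 0.10 without vemurafenib replicate 1, and passed without vemurafenib replicate 2 (adjusted p 0.0277). RPS26 also passed as higher with total counts as the scaling and in the fits on log2 TPM.

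After cisplatin all 77 genes had a fitted log2 fold change below 0 in the main fit. Of these 9 fell and 0 rose (edgeR quasi-likelihood, Benjamini-Hochberg adjusted p under 0.05), against 23.5% of all tested genes lower and 22.7% higher. At an unadjusted p under 0.05, 19 were lower and 0 higher, against 26.9% and 26.4% of all genes, and DESeq2 called 12 lower and 0 higher, against 23.7% and 23.6% of all genes. The median was -0.29 and the range from -0.67 to -0.01, beside a median of 0.00 over all genes. The number below 0 was 74 with total counts as the scaling, 76 with DESeq2 size factors and 72 in the fits on log2 TPM. It was 74 with length trends removed, 72 without cisplatin replicate 3, and 77 without vemurafenib replicate 1. All genes under 500 bases, ribosomal protein genes included, had a median of -0.04 and those from 500 to 1000 bases -0.11. All cisplatin libraries were below all controls in 40 of 77 genes, or 51.9%, and above them in 0, against 33.8% and 33.1% of all genes. The summed level was 64834 ± 7392 CPM in cisplatin and 80159 ± 6515 in control cells (SD, n = 3 each), a log2 ratio of -0.31 with an exact two-sided permutation p of 0.1, the smallest that 3 against 3 libraries allow. The ratio was -0.25 with total counts as the scaling and -0.19 in summed TPM, each with an exact p of 0.2, so the groups were fully apart under TMM and DESeq2 size factors but not under these scalings. The fit shares its spread among the 3 groups. Without vemurafenib replicate 1, 52 fell and 0 rose, against 31.2% of all genes lower and 29.8% higher, with the same median of -0.29. In a fit of the cisplatin and control libraries alone 47 fell and 0 rose, against 31.5% lower and 30.3% higher, and with length trends removed 37 fell and 0 rose, against 27.2% lower and 25.8% higher. With length trends removed and vemurafenib replicate 1 left out 46 fell, against 31.4% lower and 29.7% higher. With replicate number as a block, 31 fell and 0 rose, against 24.9% lower and 24.1% higher. Without cisplatin replicate 3, the lowest library, 3 fell (RPS2, RPS7 and RPSA), against 19.2% of all genes. Without cisplatin replicate 2 or control replicate 1 or 2, 5 fell (RPL10, RPL8, RPS2, RPS7 and RPSA), against 18.8%, 20.2% and 19.6% of all genes.

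The 9 genes that fell after cisplatin held 4 small-subunit proteins, 4 large-subunit proteins and the stalk base. RPS7, a small-subunit protein that also binds MDM2, was at 405, 372 and 356 CPM in cisplatin, against 633, 601 and 569 CPM in control libraries. RPSA, which is also known as the laminin receptor precursor, was at 1242, 1095 and 1001 CPM in cisplatin, against 1796, 1823 and 1614 CPM in control libraries. The cisplatin libraries of both genes lay well below all controls, with log2 fold changes of -0.67 ± 0.15 (adjusted p 0.00376) and -0.65 ± 0.16 (adjusted p 0.00681) by edgeR's quasi-likelihood test. RPS2, a small-subunit protein, was at 1996, 1851 and 1623 CPM in cisplatin, against 2987, 2992 and 2654 CPM in control libraries. Its log2 fold change was -0.66 ± 0.18 (adjusted p 0.0108). RPL10 was at 1612, 1412 and 1175 CPM in cisplatin, against 2333, 2312 and 2039 CPM in control libraries, a log2 fold change of -0.67 ± 0.18 (adjusted p 0.0109). RPL8, a large-subunit protein near the peptidyl transferase centre, was at 1074, 1011 and 901 CPM in cisplatin, against 1569, 1539 and 1418 CPM in control libraries, a log2 fold change of -0.60 ± 0.17 (adjusted p 0.0149). RPL37, RPL38, RPS15A and RPLP0 fell by 0.58, 0.58, 0.57 and 0.48 on the log2 scale. The adjusted p over the alternatives stayed between 6.92e-06 and 0.0192 for RPS7, 5.43e-05 and 0.0331 for RPSA and 5.56e-05 and 0.0477 for RPS2, and reached 0.0511 for RPL10 and 0.0613 for RPL8.

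Other ribosomal protein genes stayed close to controls after cisplatin. RPS4X, the X-linked copy of a small-subunit protein, was at 1803, 1634 and 1488 CPM in cisplatin, against 1865, 1731 and 1548 CPM in control libraries. The groups overlapped, and the log2 fold change was -0.06 ± 0.16 (adjusted p 0.766). After vemurafenib RPS4X was at 1721, 1177 and 1201 CPM, with a log2 fold change of -0.33 ± 0.16 (adjusted p 0.108) and of -0.53 ± 0.11 without replicate 1 (adjusted p 0.00137). RPS29, with the change nearest to 0, was at 86.2, 80.6 and 70.1 CPM in cisplatin and at 78.4, 85.5 and 73.8 CPM in control libraries. RPS27, the most abundant of the genes, had log2 fold changes of 0.02 ± 0.19 after vemurafenib and -0.05 ± 0.19 after cisplatin, neither past the threshold.

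**Figure D4:**
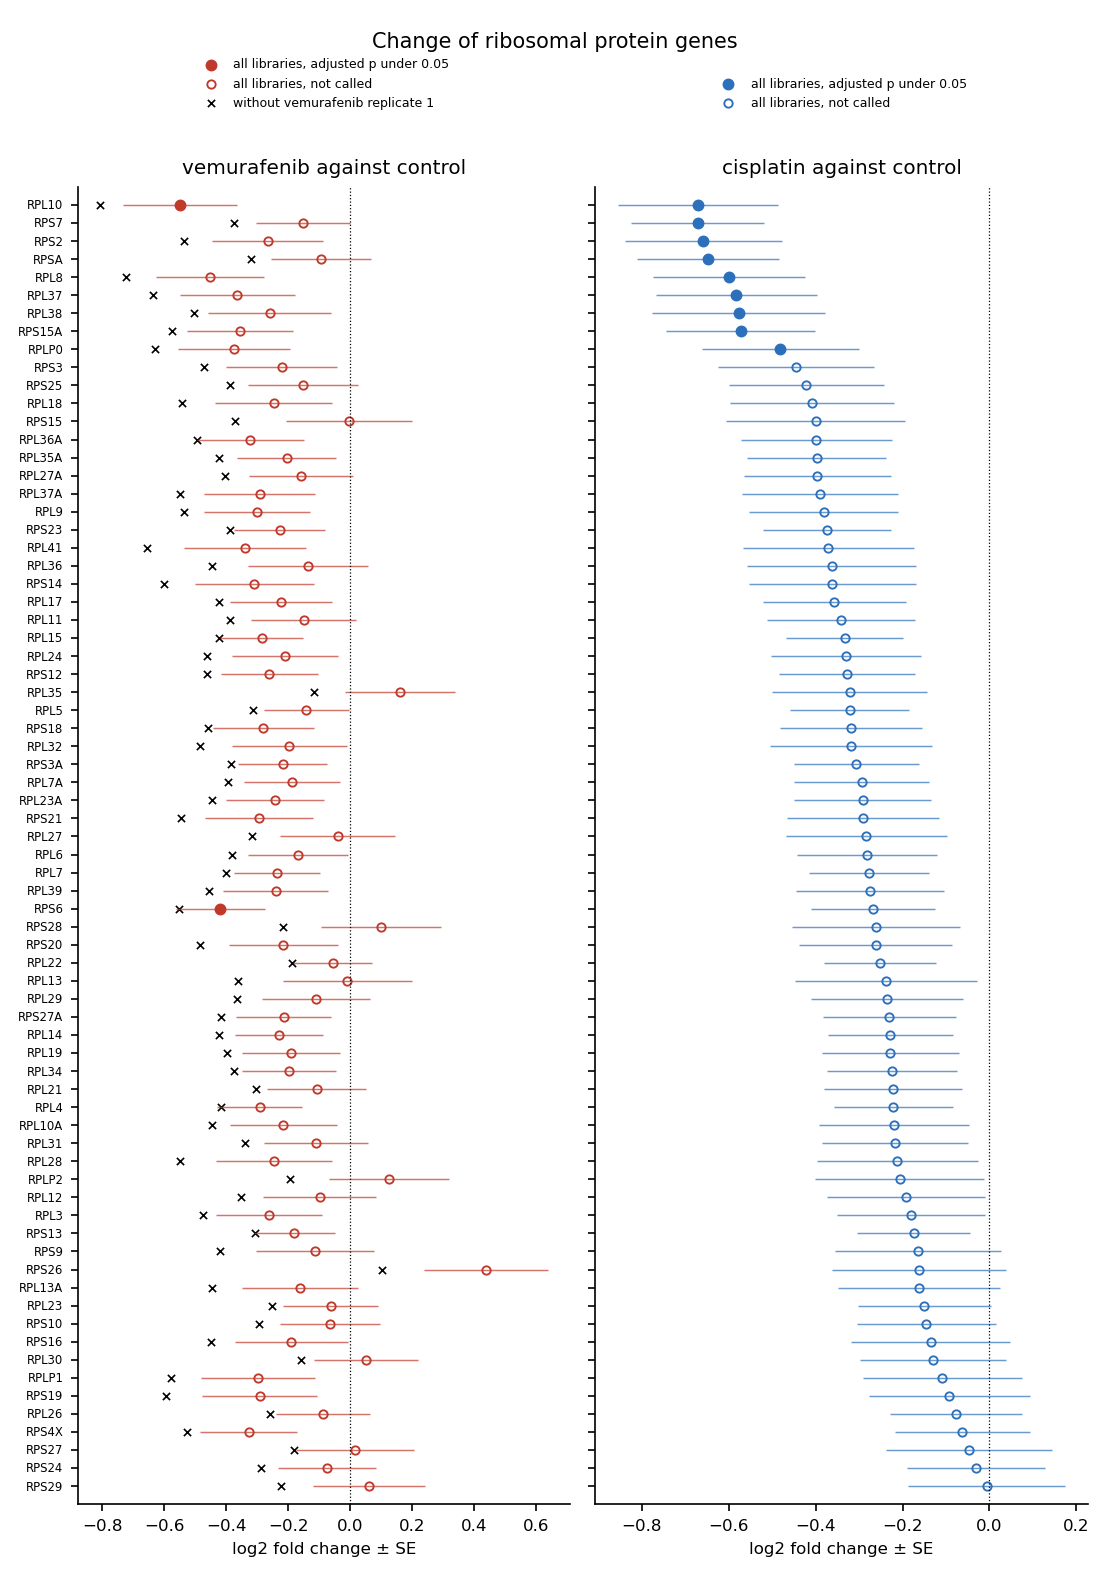
Log2 fold change of 72 of the 77 ribosomal protein genes, each with its standard error (x axis), vemurafenib against control on the left and cisplatin against control on the right, ordered down the page by the cisplatin change. Filled circles passed the test (2 on the left, 9 on the right), open circles did not, and crosses on the left are the values without vemurafenib replicate 1, which lie below 0 in all genes plotted but RPS26.

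Both comparisons use the same 3 control libraries, so the drugs were also compared with each other. With all libraries 4 genes were higher in vemurafenib than in cisplatin cells and 0 were lower (edgeR quasi-likelihood, Benjamini-Hochberg adjusted p under 0.05), against 23% of all tested genes higher and 20.8% lower. At an unadjusted p under 0.05 there were 4 higher and 0 lower, against 27.2% and 24.2% of all genes, and DESeq2 called 4 higher and 0 lower, against 22.6% and 22% of all genes. The median was 0.09, beside 0.03 over all genes. The median was -0.13 without vemurafenib replicate 1, when 3 were higher and 7 lower, against 26.5% of all genes higher and 24% lower. With length trends removed the median was -0.12, with 4 higher and 9 lower, against 25.1% higher and 23.9% lower. With length trends removed and replicate 1 left out there were 4 higher and 16 lower, against 26.1% higher and 25% lower, and in a fit of these groups alone 0 were called, against 18.4% higher and 18.9% lower. The summed level was 69443 ± 18175 CPM in vemurafenib and 64834 ± 7392 in cisplatin cells, a log2 ratio of 0.07 (exact two-sided permutation p of 0.8, n = 3 each), and -0.13 without vemurafenib replicate 1 (exact p of 0.4).

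The 4 genes higher after vemurafenib were RPSA, RPS7, RPS26 and RPL35. These were also the only ribosomal protein genes whose vemurafenib libraries all lay above the cisplatin libraries, 4 of 77 or 5.19%, against 27.9% of all genes, and 0 lay below, against 26.1%. RPSA was at 2111, 1388 and 1404 CPM in vemurafenib, against 1242, 1095 and 1001 CPM in cisplatin libraries, a log2 fold change of 0.55 ± 0.16 (adjusted p 0.0165) and of 0.33 ± 0.10 without vemurafenib replicate 1 (adjusted p 0.0172). RPS7 was at 697, 457 and 469 CPM in vemurafenib, against 405, 372 and 356 CPM in cisplatin libraries, a log2 fold change of 0.52 ± 0.15 (adjusted p 0.0166) and of 0.30 ± 0.08 without replicate 1 (adjusted p 0.01). RPS26 was at 822, 436 and 483 CPM in vemurafenib, against 409, 388 and 351 CPM in cisplatin libraries, a log2 fold change of 0.60 ± 0.20 (adjusted p 0.0298). Without replicate 1 the change of RPS26 was 0.27 ± 0.10 (adjusted p 0.0371). RPL35, a large-subunit protein at the exit tunnel, was at 1270, 757 and 796 CPM in vemurafenib, against 740, 690 and 590 CPM in cisplatin libraries, a log2 fold change of 0.48 ± 0.18 (adjusted p 0.0463). Without vemurafenib replicate 1 RPL35 no longer passed (0.21 ± 0.10, adjusted p 0.095). None of the 4 passed without cisplatin replicate 2 or 3, RPSA and RPS7 alone passed without cisplatin replicate 1, and RPL35 did not pass without any 1 of the control libraries. The largest adjusted p over the alternatives was 0.068 for RPSA, 0.0623 for RPS7, 0.0993 for RPS26 and 0.158 for RPL35. Lower in vemurafenib than in cisplatin cells without vemurafenib replicate 1 were RPL13A, RPL28, RPL41, RPLP1, RPS16, RPS19 and RPS4X, of which RPS19 had -0.50 ± 0.09 (adjusted p 0.000913), RPLP1 -0.47 ± 0.11 (adjusted p 0.00325) and RPS4X -0.46 ± 0.11 (adjusted p 0.00336).

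Much of the variation above is shared by all 77 genes, so each gene was also measured against their sum, in a fit whose library sizes were the summed counts of the ribosomal protein genes. This scaling was added after the data had been seen. On it the median of all tested genes moved to 0.27 in vemurafenib and 0.32 in cisplatin against control and to -0.02 between the drugs, and the ribosomal protein genes had medians of 0.00, 0.01 and 0.00, near 0 by construction. Relative to the sum, RPL35 and RPS26 were higher and RPL10 was lower after vemurafenib, against 23.9% of all genes higher and 10.1% lower. After cisplatin RPL10, RPL8, RPS2, RPS7 and RPSA were lower and 0 were higher, against 9.27% of all genes lower and 26.9% higher. Between the drugs RPSA, RPS7, RPS2, RPL35 and RPS26 were higher and RPS4X was lower in vemurafenib cells, against 11.6% of all genes higher and 12.9% lower.

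Shares of the summed ribosomal protein counts are given for 5 of the genes called on this scale. RPSA took 2.33%, 2.37% and 2.37% in vemurafenib, 1.72%, 1.69% and 1.74% in cisplatin and 2.12%, 2.19% and 2.22% in control libraries. The 3 groups did not overlap, and vemurafenib replicate 1 lay with its group. RPL10 took 2.23%, 2.16% and 2.16% in vemurafenib, 2.23%, 2.18% and 2.05% in cisplatin and 2.75%, 2.78% and 2.80% in control libraries. Both drug groups were below all controls and overlapped each other. Scaled in this way RPL10 had a log2 fold change of -0.35 ± 0.09 (adjusted p 0.0144) after vemurafenib and -0.37 ± 0.09 (adjusted p 0.0102) after cisplatin. RPL35 took 1.40%, 1.29% and 1.34% in vemurafenib, 1.03%, 1.06% and 1.03% in cisplatin and 1.04%, 0.997% and 1.13% in control libraries. The vemurafenib shares of RPL35 were above all others, with a log2 fold change against control of 0.35 ± 0.11 (adjusted p 0.0298). RPS26 took 0.909%, 0.744% and 0.814% in vemurafenib, 0.567%, 0.597% and 0.612% in cisplatin and 0.487%, 0.482% and 0.648% in control libraries, with a log2 fold change of vemurafenib against control of 0.61 ± 0.15 (adjusted p 0.0107). RPS4X took 1.90%, 2.01% and 2.03% in vemurafenib, 2.50%, 2.52% and 2.59% in cisplatin and 2.20%, 2.08% and 2.13% in control libraries. The shares of RPS4X ran the other way from those of RPSA, and its change between the drugs was -0.36 ± 0.09 (adjusted p 0.0162). Without vemurafenib replicate 1 every one of these calls on the summed scale was kept, and RPL8 and RPL30 after vemurafenib, 7 further genes after cisplatin (RPL37 and RPS15A lower, RPL26, RPS24, RPS27, RPS29 and RPS4X higher), and RPLP1 and RPS19 between the drugs were added. The shares of all genes called in that fit were 10.9% lower and 50.5% higher after vemurafenib, 14% lower and 44.3% higher after cisplatin, and 14.1% lower and 25.4% higher between the drugs.

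**Figure D5:**
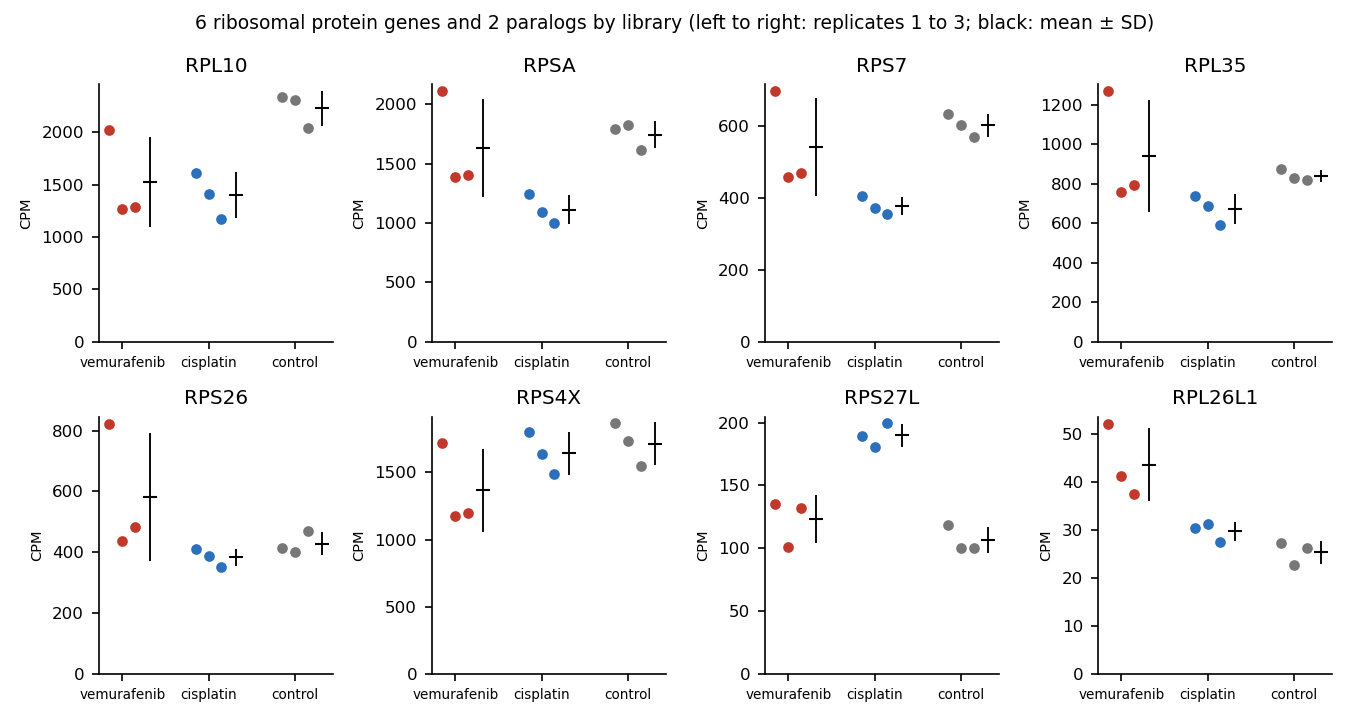
CPM (y axis, from 0) of 6 ribosomal protein genes and the paralogs RPS27L and RPL26L1 in each library, with vemurafenib in red, cisplatin in blue and control in grey, replicates 1 to 3 from left to right and the mean ± SD in black. Vemurafenib replicate 1 is the highest red point in all 6 ribosomal protein genes, and RPS27L is at 189, 181 and 200 CPM in cisplatin libraries.

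RPLP0, RPLP1 and RPLP2 form the stalk that recruits the elongation factors. RPLP0 was at 2957, 1848 and 1890 CPM in vemurafenib, 2366, 2017 and 1835 in cisplatin and 3059, 3020 and 2600 in control libraries, and fell after cisplatin by 0.48 on the log2 scale (adjusted p 0.0465). RPLP1 had log2 fold changes of -0.30 ± 0.18 and -0.11 ± 0.18 and RPLP2 of 0.13 ± 0.19 and -0.21 ± 0.19 after vemurafenib and cisplatin, and neither passed with all libraries. When vemurafenib replicate 1 was left out, RPLP0 and RPLP1 fell after vemurafenib, by 0.63 (adjusted p 0.000839) and 0.58 (adjusted p 0.000767), and RPLP2 was at -0.19 (adjusted p 0.123). Large-subunit genes had medians of -0.20 after vemurafenib and -0.29 after cisplatin, and small-subunit genes -0.21 and -0.29, with 1 and 4 called lower in each subunit, against 22.9% and 23.5% of all genes. With vemurafenib replicate 1 left out, 38 of 43 large-subunit and 27 of 31 small-subunit genes fell after vemurafenib, with a median of -0.42 in both and against 27.9% of all genes, and 31 and 20 fell after cisplatin, against 31.2%.

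Among proteins that can bind MDM2 outside the ribosome, RPL5 was at 509, 362 and 374.6 CPM in vemurafenib, 400, 359 and 342 in cisplatin and 480, 472 and 423 in control libraries. RPL11, its partner in the particle with 5S rRNA, was at 1632, 1040 and 1076 CPM in vemurafenib, 1208, 1071 and 1001 in cisplatin and 1479, 1462 and 1218 in control libraries. All cisplatin libraries were below all controls in both genes, and vemurafenib libraries lay on both sides. The log2 fold changes after vemurafenib and cisplatin were -0.14 ± 0.14 and -0.32 ± 0.14 for RPL5 and -0.15 ± 0.17 and -0.34 ± 0.17 for RPL11, and none passed with all libraries. Without vemurafenib replicate 1 all 4 passed, with adjusted p of 0.011 and 0.00424 for RPL5 and 0.00998 and 0.00901 for RPL11. RPL23 had -0.06 ± 0.15 and -0.15 ± 0.15 and RPL26, which also binds the p53 mRNA, -0.09 ± 0.15 and -0.08 ± 0.15, and none of these passed with or without that library. MDM2 itself was at 178 ± 4.41 CPM in vemurafenib, 512 ± 34.9 in cisplatin and 165 ± 32.2 in control cells (SD, n = 3 each), a log2 fold change of 1.64 ± 0.13 after cisplatin (adjusted p 2.3e-06).

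RPS19, affected in Diamond-Blackfan anaemia, was at 602, 339 and 368 CPM in vemurafenib, 532, 507 and 464 in cisplatin and 582, 526 and 494 in control libraries. Its log2 fold changes of -0.29 ± 0.19 and -0.09 ± 0.19 did not pass, and without vemurafenib replicate 1 it fell after vemurafenib by 0.59 (adjusted p 0.00026). RPS14, lost in 5q deletion, had -0.31 ± 0.19 and -0.36 ± 0.19. RPL22, which binds structured RNAs outside the ribosome, had -0.06 ± 0.13 and -0.25 ± 0.13. RPL3, at the peptidyl transferase centre, had -0.26 ± 0.17 and -0.18 ± 0.17, RPS3 of the mRNA entry channel -0.22 ± 0.18 and -0.44 ± 0.18, RPL39 of the exit tunnel -0.24 ± 0.17 and -0.28 ± 0.17, RPL13A -0.16 ± 0.19 and -0.16 ± 0.19, RPL10A -0.22 ± 0.17 and -0.22 ± 0.17, RPL41 -0.34 ± 0.20 and -0.37 ± 0.20, RPL36A -0.32 ± 0.17 and -0.40 ± 0.17 and RPS27A, made as a fusion with ubiquitin, -0.21 ± 0.15 and -0.23 ± 0.15 after vemurafenib and cisplatin, none of them past the threshold with all libraries. In the fit without vemurafenib replicate 1, RPS14, RPL3, RPS3, RPL39, RPL13A, RPL10A, RPL41, RPL36A and RPS27A fell after vemurafenib, by 0.42 (RPS27A) to 0.66 (RPL41), and RPL22 did not pass (-0.19, adjusted p 0.124). There RPS14, RPL22, RPS3, RPL39, RPL41, RPL36A and RPS27A fell after cisplatin.

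Estimated counts were not whole (tolerance 1e-06) in at least 1 library for 13 of the 77 genes and in all 9 for RPL10, RPL12, RPL17, RPL23A, RPL24, RPL36A, RPL41, RPS26 and RPSA. Readthrough loci that share exons with RPL17, RPL36A and RPS10 were listed beside them in the table. Values of these genes are uncertain to the extent that the authors' counting divided reads between loci.

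Of 8 paralogs of ribosomal protein genes 6 were tested, and 3 passed in at least 1 comparison. After vemurafenib 1 was higher and 0 lower, against 22% and 22.9% of all tested genes. After cisplatin 1 was higher and 1 lower, against 22.7% and 23.5%. In vemurafenib against cisplatin cells 2 were higher and 1 lower, against 23% and 20.8%. RPS27L, a paralog of RPS27 known as a p53 target, was at 136, 101 and 132 CPM in vemurafenib, 189, 181 and 200 in cisplatin and 118, 101 and 100 in control libraries. All cisplatin libraries were above the other 6, and the log2 fold change was 0.83 ± 0.13 against control (adjusted p 0.000259). RPL26L1, a paralog of RPL26, was at 52.1, 41.1 and 37.5 CPM in vemurafenib, 30.5, 31.1 and 27.5 in cisplatin and 27.2, 22.7 and 26.1 in control libraries. The vemurafenib libraries were above the other 6, with log2 fold changes against control of 0.78 ± 0.14 (adjusted p 0.000742) and of 0.63 without replicate 1. RPL39L, which is known for its expression in testis, was at 10.0, 6.30 and 6.61 CPM in vemurafenib, 2.28, 3.19 and 2.46 in cisplatin and 7.37, 6.77 and 5.20 in control libraries, a fall of 1.28 on the log2 scale after cisplatin (adjusted p 0.00127). RPL22L1, RPL36AL and RPL7L1 passed in no comparison with all libraries. FAU, which encodes a ribosomal protein as a fusion, did not pass either with all libraries, with 305 ± 75.6, 234 ± 19.5 and 288 ± 14.8 CPM in vemurafenib, cisplatin and control cells (SD, n = 3 each). RACK1, a scaffold protein of the small subunit, was at 2943, 1945 and 1966 CPM in vemurafenib, 2166, 2047 and 1784 in cisplatin and 3071, 3122 and 2581 in control libraries and fell after cisplatin by 0.55 on the log2 scale (adjusted p 0.0184).

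The factors that build ribosomes and the mitochondrial ribosomal proteins are set beside the 77 genes in counts. Over all tested genes the calls against control were 22% up and 22.9% down for vemurafenib and 22.7% up and 23.5% down for cisplatin, and 23% up and 20.8% down between the drugs. Without vemurafenib replicate 1 they were 26.2% up and 27.9% down, 29.8% up and 31.2% down, and 26.5% up and 24% down. Of 54 ribosome biogenesis factors 16 rose and 3 fell after vemurafenib (median 0.22), 1 rose and 11 fell after cisplatin (median -0.07), and 28 were higher and 0 lower in vemurafenib than in cisplatin cells (median 0.37). With vemurafenib replicate 1 left out these counts were 20 and 5, 2 and 17, and 26 and 0. NPM1, the abundant nucleolar chaperone, was at 1130 ± 90.8 CPM in vemurafenib, 1029 ± 97.0 in cisplatin and 1748 ± 104 in control cells (SD, n = 3 each), and fell by 0.63 and 0.76 on the log2 scale. FBL, the methyltransferase of ribosomal RNA, was at 147 ± 39.2, 72.7 ± 9.54 and 199 ± 10.2 CPM and fell by 1.45 after cisplatin. Of 78 mitochondrial ribosomal proteins 11 rose and 3 fell after vemurafenib (median 0.14), 3 rose and 18 fell after cisplatin (median -0.14), and 32 were higher and 1 lower in vemurafenib than in cisplatin cells (median 0.30). With that library left out these counts were 11 and 15, 4 and 31, and 28 and 4, and the median after vemurafenib was -0.02. Of 15 elongation factors and other genes with TOP mRNAs, 5 fell and 0 rose after vemurafenib (median -0.20) and 4 fell and 0 rose after cisplatin (median -0.17), and without vemurafenib replicate 1, 8 fell after vemurafenib and 5 fell and 1 rose after cisplatin. EIF4B, an initiation factor, was at 654 ± 47.6 CPM in vemurafenib, 813 ± 58.2 in cisplatin and 1007 ± 82.1 in control cells and fell in both, by 0.62 and 0.31, and TPT1, the translationally controlled tumour protein, at 2171 ± 268, 3380 ± 345 and 2903 ± 333 CPM, fell after vemurafenib by 0.42.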

How the data were processed

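RNA-seq of 9 samples of A375 cells was grouped by the treatment and title labels into 3 groups of 3. Random hexamers primed the cDNA, which was amplified by PCR, per the labels' protocols, and no label states strand marking. The submitters' processing notes name HISAT2 2.0.4 and hg38. How genes were counted is not given in the sources used here. Per gene, the authors deposited estimated counts, FPKM and TPM per gene, so named per the file headers. The deposited estimated counts were rounded to whole numbers.

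Counts were scaled by TMM, filtered with filterByExpr and fitted with edgeR 4.0.16 in R 4.3.3 as 3 group means over 9 libraries (6 residual degrees of freedom, biological coefficient of variation 0.139). Contrasts were tested two-sided by the quasi-likelihood test, with Benjamini-Hochberg adjustment over all 13989 genes and a threshold of 0.05. The code was tested on simulated data. Alternatives used DESeq2 1.42.0, limma 3.58.1 on log2(TPM + 1) and log2(TPM + 0.1), other scalings and filters, per-library loess trends on length, a replicate block and fits without each library. The summed level was tested by exact permutation. Identifiers of all 77 genes matched RefSeq, whose starts were used for sequences.

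The 77 genes and all gene lists were chosen with earlier results of these data known. Named genes were a panel of 24 picked by role, up to 5 called genes per direction and comparison whose groups do not overlap, the 5 highest and 5 lowest by control TPM, paralogs, FAU and RACK1, and up to 2 called genes of smallest p per other list and comparison. RPS29 and others singled out as range ends, or in counts of 5 or fewer, were chosen after their values were seen. A gene outside this rule is named only where a count is spelled out. A few genes are counted but not reported here by name.

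The labels do not say whether replicates are separate cultures, and p-values therefore cover only the spread among these samples, which can be technical. Chi-square per degree of freedom between libraries of a group was at least 4.52, so none was a duplicate. Deviations of libraries of the same number correlated across genes at 0.18, 0.14 and 0.18 for vemurafenib and control. For cisplatin and control they correlated at 0.21, 0.08 and 0.13. This comes from the data and not from any label, and the replicate block is therefore printed for both comparisons. The marker lists held 8 melanoma, 6 fibroblast, 5 endothelial, 5 blood and 6 epithelial genes.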

Additional observations from a re-analysis of the deposited data

How the results depend on the processing

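The number of ribosomal protein genes called depended on whether vemurafenib replicate 1 and the trend with length were kept. For vemurafenib against control, 1 gene was called higher with total counts as the scaling, with log2(TPM + 1) and log2(TPM + 0.1) in limma, and without the filter on TPM, 1 without vemurafenib replicate 2, and 2 scaled to the summed ribosomal protein counts, or 3 so scaled without vemurafenib replicate 1. The number called lower was 1 with total counts, 1 with only the compared groups, 5 with log2(TPM + 0.1), 60 with length offsets, 65 with length offsets and vemurafenib replicate 1 left out, and 12 with the replicate block and 64 with block and length offsets. With block and length offsets 27.4% of all genes were called lower and 25.4% higher. Leaving out each library gave between 0 and 67 lower and between 0 and 1 higher. Total counts moved the median of all genes to 0.11 in this comparison.

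For cisplatin against control, 47 genes were called lower with only the compared groups, 16 with log2(TPM + 1), 17 with log2(TPM + 0.1), 15 with log2(TPM + 1) and no filter, 37 with length offsets, 46 with length offsets and vemurafenib replicate 1 left out, and 3 to 52 without each library. For vemurafenib against cisplatin, the number higher was 0 with only the compared groups and 0 to 4 without each library. The number lower was 1 with either TPM setting, 9 with length offsets, 16 with length offsets and vemurafenib replicate 1 left out, and 0 to 7 without each library. The summed level between the drugs ranged from -0.13 to 0.18 without each library, with -0.01 (-0.0099) without cisplatin replicate 3.

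Same-numbered libraries of cisplatin and control correlated at 0.21, 0.08 and 0.13, and differently numbered ones at -0.18 to 0.05. Those of vemurafenib and cisplatin with the same number correlated at 0.17, 0.01 and 0.10, and vemurafenib replicate 2 with cisplatin replicate 3 at 0.14. No label states a pairing, and the main fit took the numbers as pairs in no comparison. The replicate block called 31 genes lower for cisplatin against control (24.9% of all genes), and 5 higher and 0 lower between the drugs (23.9% and 22.1%). With block and length offsets, 44 were lower after cisplatin (28.2%) and 13 lower between the drugs (24.7%). Over all settings on the scale of all genes, all tested genes called lower made up 13.6% to 28.9% after vemurafenib, 14.6% to 31.5% after cisplatin and 14% to 25% between the drugs. Those called higher made up 16.7% to 28.4%, 17.3% to 30.3% and 17.2% to 26.5% in the same order.

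Scaled to the summed ribosomal protein counts with vemurafenib replicate 1 left out, RPS4X (0.25), RPS27 (0.25) and RPL26 (0.23) were above 0 after cisplatin. That scaling moved the median of all genes to 0.32, and relative to it they were not higher. On the scale of all genes, directions turned with an adjusted p under 0.05 in 4 cases among the genes named. Between the drugs, RPL10A (-0.21) and RPL41 (-0.23) were lower with length offsets and replicate block, RPL41 without vemurafenib replicate 1 (-0.29, in a range to 0.16 without other libraries), and RPL41 (-0.27) with length offsets and that library left out. More ribosomal protein genes changed sign between the drugs without passing this threshold. Those below 0 numbered 15 in the main fit, 65 without vemurafenib replicate 1 and 58 with length offsets. The median of the ribosomal protein genes was 0.09, -0.13 and -0.12 in the same order. The cause of these turns was not tested. The scaling to the summed counts and the settings that join length offsets with leaving out vemurafenib replicate 1 were added after seeing the data.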

Other observations

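Of 19 genes of mTORC1 and TOP mRNA control, 5 rose and 3 fell after vemurafenib (median 0.08) and 6 rose and 6 fell after cisplatin (median 0.13), where all tested genes had 22% up and 22.9% down for vemurafenib and 22.7% up and 23.5% down for cisplatin. The counts without vemurafenib replicate 1 were 5 and 5, and 9 and 8. All tested genes then had 26.2% up and 27.9% down, and 29.8% up and 31.2% down. SESN3, a sestrin that restrains mTORC1, was at 62.6, 125 and 60.03 CPM in vemurafenib, 18.7, 23.5 and 26.7 in cisplatin and 13.0, 15.7 and 13.5 in control libraries, a log2 fold change of 2.55 ± 0.27 after vemurafenib (adjusted p 1.52e-05) by edgeR's quasi-likelihood test. SESN1, a p53-regulated sestrin, was at 51.8 ± 2.81 CPM in cisplatin against 17.96 ± 2.40 in control cells (SD, n = 3 each), a log2 fold change of 1.53 ± 0.12. MTOR was at 189 ± 32.1 CPM in vemurafenib and 138 ± 4.58 in cisplatin against 109 ± 7.39 in control cells and rose in both, by 0.79 and 0.34. DEPTOR, an mTOR inhibitor, rose after cisplatin by 1.43 and after vemurafenib by 0.58.

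Over all tested genes 22% rose and 22.9% fell after vemurafenib and 22.7% rose and 23.5% fell after cisplatin. Without vemurafenib replicate 1 these shares were 26.2% and 27.9%, and 29.8% and 31.2%. Of 15 tested genes of RNA polymerase I and its factors, 3 rose and 4 fell after vemurafenib and 2 rose and 7 fell after cisplatin, or 4 and 6 and then 4 and 7 without vemurafenib replicate 1. POLR1A, the largest subunit, was at 133 ± 21.5 CPM in vemurafenib and 127 ± 0.378 in cisplatin against 89.6 ± 7.90 in control cells and rose in both, while UBTF, which binds the ribosomal RNA promoter, fell after cisplatin by 0.52 and TAF1B of the promoter selectivity factor fell after both drugs, by 0.50 and 0.71. Of 30 initiation factors 5 rose and 5 fell after vemurafenib and 2 rose and 7 fell after cisplatin (14 fell without vemurafenib replicate 1), with EIF2B1 higher after both (0.70 and 0.46) and EIF1 lower after both (-0.63 and -0.35). Of 9 tested genes of the MYC network 1 rose and 0 fell after vemurafenib and 2 rose and 1 fell after cisplatin (of 10 tested without vemurafenib replicate 1, 2 and 2 and then 3 and 2), and MXD4, an antagonist of MYC, rose after both (0.72 and 0.67).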
